A study of Mus musculus with 20 samples.

Results

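The integrated stress response and the unfolded protein response were followed through 39 mouse genes, listed by symbol and all found in the 35226 genes of the count table. The list holds 11 regulators and effectors of the ATF4 pathway, 7 enzymes of serine, asparagine and folate metabolism, 4 amino acid transporters, 4 genes of the unfolded protein response sensors, and 13 chaperones and quality control genes of the endoplasmic reticulum (ER). The first 22 are called the ATF4 branch below, and all 39 passed the filter on low counts. The 4 genes called sensors below are Eif2ak3, Ern1, Atf6 and Xbp1, although Xbp1 is not itself a sensor. RNA came from LLC1 tumors, which are Lewis lung carcinoma cells grown under the skin of the right flank of male C57Bl6/J mice aged 8 to 10 weeks at the start. The mice were assigned at random once tumors reached 100 mm3, and received vehicle, KW6002 (istradefylline, an antagonist of the adenosine receptor encoded by Adora2a), cisplatin (a platinum drug that damages DNA), or cisplatin with KW6002 (cotreatment). There were 5 tumors per group and 1 library per tumor. Every tumor carried the same implanted line, and the labels name no genetic change in the host. The title of vehicle replicate 1 was shorter than those of the other vehicle tumors, and all 5 were taken as 1 group.

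Cells answer amino acid shortage, misfolded protein in the ER and other stresses by phosphorylating the translation factor eIF2, which slows protein synthesis in general and favors translation of ATF4. ATF4 then switches on genes for making and importing amino acids, together with DDIT3 (CHOP), TRIB3 and the phosphatase subunit PPP1R15A, which closes the loop. The ER has its own sensors, PERK (Eif2ak3), IRE1 (Ern1) and ATF6. PERK feeds into ATF4, whereas ATF6 and the spliced form of XBP1 raise the chaperones that fold and discard ER proteins. ATF4 is controlled largely at translation, so its own mRNA is a limited readout of the pathway. The comparison asked how the ATF4 branch moved relative to the ER chaperones under each treatment.

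Both branches are known for short DNA elements near gene starts, which were looked up in RefSeq promoters of build GRCm38.p6, from 250 bases before to 50 after each start. Of the 39 genes 34 had an entry. The C/EBP-ATF element bound by ATF4 was searched as TGATGNAA on either strand, and the ER stress element as CCAAT followed after 9 bases by CCACG on either strand. The stretches below show 4 genes for each element, of which Asns, Atf3, Herpud1 and Calr were called after cotreatment and Chac1, Hspa5, Pdia6 and Dnajc3 were not, with capitals marking the element and 15 bases on each side, 5′ to 3′ on the strand of the gene, so that an element on the other strand reads as its reverse complement (TTGCATCA in Atf3, Chac1 and Herpud1). No gene of the list had both elements in its window. The first 4 carry the C/EBP-ATF element and lie at chr6:7693210-7693247 (Asns, minus strand), chr1:191183421-191183458 (Atf3, minus strand), chr2:119351034-119351071 (Chac1, plus strand) and chr8:94386302-94386339 (Herpud1, plus strand). The last 4 carry the ER stress element and lie at chr2:34772010-34772058 (Hspa5, plus strand), chr8:84847060-84847108 (Calr, minus strand), chr12:17266476-17266524 (Pdia6, plus strand) and chr14:118937812-118937860 (Dnajc3, plus strand).
Asns: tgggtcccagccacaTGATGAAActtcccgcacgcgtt
Atf3: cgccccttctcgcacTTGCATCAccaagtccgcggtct
Chac1: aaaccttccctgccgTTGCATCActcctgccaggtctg
Herpud1: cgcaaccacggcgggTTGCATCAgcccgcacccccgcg
Hspa5: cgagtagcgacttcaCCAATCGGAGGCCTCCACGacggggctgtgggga
Calr: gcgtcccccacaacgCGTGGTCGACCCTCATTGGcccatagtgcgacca
Pdia6: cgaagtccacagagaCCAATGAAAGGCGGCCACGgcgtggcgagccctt
Dnajc3: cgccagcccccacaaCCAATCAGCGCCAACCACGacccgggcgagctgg

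The C/EBP-ATF element was found in 6 of the 34 genes with an entry, namely Trib3, Chac1, Atf3, Nupr1, Asns and Herpud1, beside 4.51% of all 27025 genes (3.97% of 32851 promoters). The ER stress element was found in 7 of the 12 chaperone genes with an entry (Hspa5, Hsp90b1, Dnajc3, Pdia6, Calr, Canx and Creld2), in none of the other genes of the list, beside 0.14% of all genes (0.12% of promoters). A match describes letters only. Measured from the RefSeq starts, the Trib3 match lay after the start, and the others before it. By the gene bounds of GENCODE M21, however, the matches of Asns, Atf3, Nupr1 and Hspa5 also lie inside the gene.

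Libraries held 28.4 to 41 M counted reads, and 16665 genes were tested with a biological coefficient of variation of 0.163. Levels are given as CPM, counts per M reads after scaling of the libraries, as mean ± SD of 5 tumors. Calls required that the adjusted P value in edgeR's quasi-likelihood test was under 0.05 and that the log2 fold change was at least 0.32 in either direction. Library codes in the sample descriptions fell into an earlier and a later run, with 1, 2, 2 and 3 tumors of the earlier run in vehicle, KW6002, cisplatin and cotreatment. The labels do not say what the runs are. The summed level of 5 genes of simple and lung epithelium was 321.9 to 433.3 CPM in vehicle and KW6002 tumors and 466.7 to 594.5 CPM in cisplatin and cotreated tumors, without overlap, and its part in the results was not tested. Of these 5 genes, 3 passed the filter on low counts. Whether their reads came from the implanted line or from other cells was not tested. Sftpc, which defines the alveolar type II cell, was at 0 in all vehicle, KW6002 and cotreated tumors. Markers of other cells were present too: the summed level of 6 endothelial genes was 150 to 221 CPM in vehicle tumors and 76.4 to 105 CPM in cisplatin tumors, and that of 5 red blood cell genes was 26 to 117 CPM in vehicle tumors and at most 0.11 CPM in the cisplatin and cotreated tumors, where Hbb-bt was at 0 throughout. In such bulk samples, fewer cells of a type and less RNA per cell cannot be told apart. The labels say no more about separate animals, so P values measure the spread between these samples. The strand option of the counting is not given in the sources used here. As HTSeq was run in union mode, ignoring strand would drop reads in exon stretches shared with a gene on the opposite strand. Such stretches occur in 13 of the 39 genes. The longest overlaps were those of Cebpb (20.7% of exon length), Aldh1l2 (14.1%), Psph (10.4%), Hsp90b1 (10.3%) and Eif2ak3 (8.0%), and those of Atf5, Ddit3, Manf, Pdia6, Shmt2, Dnajb9, Ppp1r15a and Cebpg were at most 4.7% each. On the same strand, Ddit3 also shares 105 bases (6.1% of exon length) with a second annotated gene of that name.

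Per kb of exon, the 6 most abundant of the 39 genes in vehicle tumors were ER chaperones (Hsp90b1, Pdia6, Hspa5, Calr, Canx and Pdia4), followed by Atf4, and the 3 least abundant were Cebpb, Chac1 and Stc2. The ER genes Herpud1, Dnajb9 and Sdf2l1 lay below most enzymes. In vehicle tumors Hsp90b1, the ER form of HSP90, stood at 354 ± 24.1 CPM per kb, Hspa5 (BiP, the main ER chaperone) at 259 ± 27.8 and Atf4 at 127 ± 7.72. Psat1 and Shmt2, enzymes of serine metabolism, stood at 51.3 ± 4.02 and 54.9 ± 8.67 CPM per kb, within each other's spread. Trib3 lay at 4.14 ± 0.667, Chac1, which degrades glutathione, at 0.585 ± 0.101, and Stc2, a secreted glycoprotein, at 0.218 ± 0.048 CPM per kb.

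**Figure D1:**
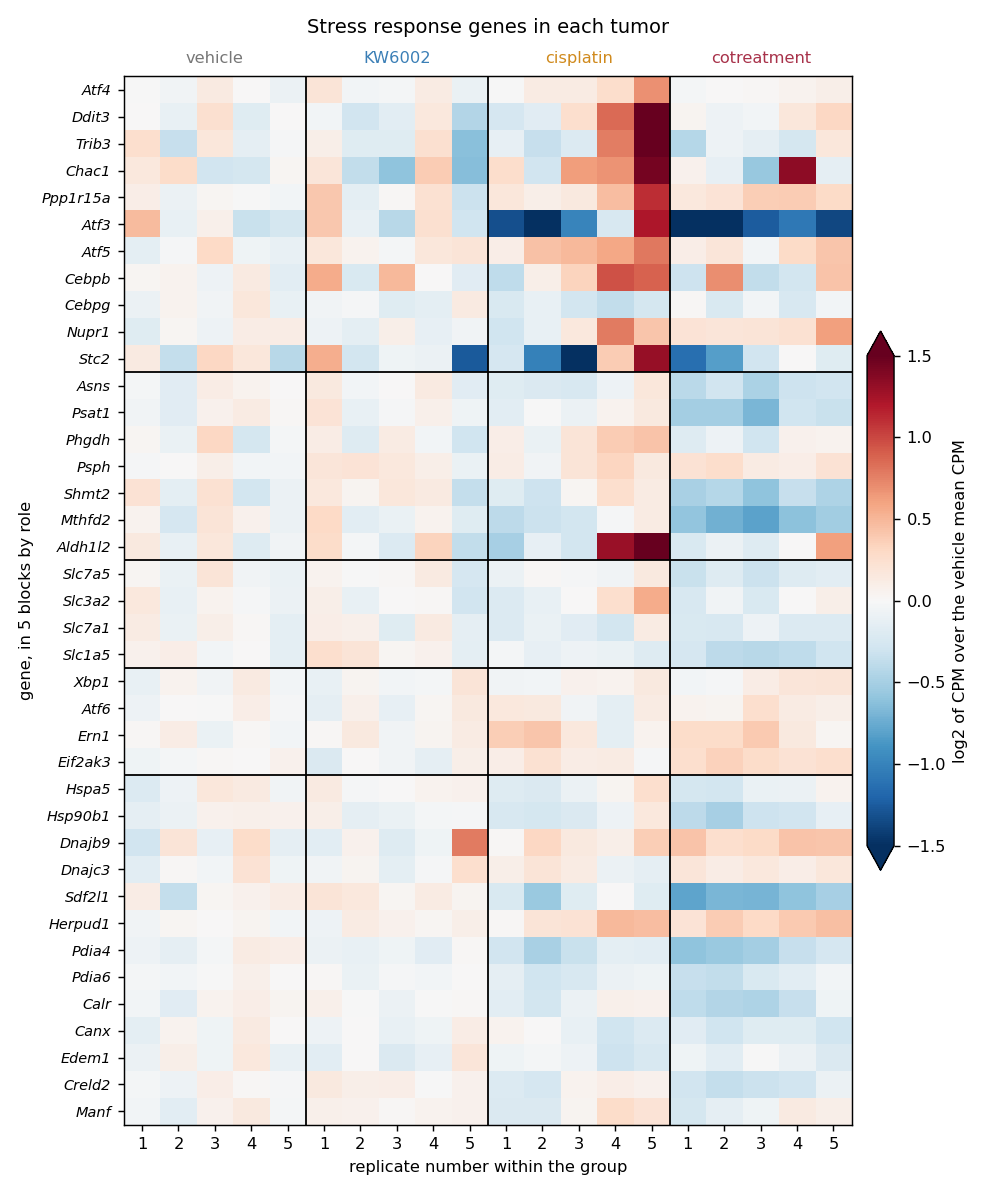
Each row is a gene and each column a tumor, in 4 groups of 5, colored by the log2 of its CPM over the mean CPM of vehicle tumors; black lines part the 5 roles, and colors end at 1.5 in either direction. Most rows of the upper block are red in cisplatin replicates 4 and 5, and Psat1, Shmt2, Mthfd2, Slc1a5, Sdf2l1 and Pdia4 are blue in all cotreated tumors.

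KW6002 alone was compared with vehicle. None of the 39 genes was called by edgeR, against 0% of all tested genes, and none had an unadjusted P value under 0.05, beside 2.03% of all tested genes. DESeq2 called none either. The log2 fold changes lay between -0.14 (Ddit3) and 0.17 (Cebpb), with a median of 0.007 beside -0.003 over all tested genes. Atf4 stood at 299.8 ± 18.2 CPM in vehicle and 307 ± 26 CPM in KW6002 tumors. Groups overlapped in all 39 genes, beside 0.342% of all tested genes whose groups did not overlap.

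Cisplatin alone raised 1 gene of the list, Atf5, and lowered none. Atf5 encodes a transcription factor that is translated under the same control as ATF4. Its levels were 25.5, 27.9, 34.7, 27.1 and 26.1 CPM in vehicle replicates 1 to 5 and 30.3, 38.2, 39.6, 42.3 and 49 CPM in cisplatin replicates 1 to 5. All cisplatin tumors were above the vehicle median, and the groups overlapped through vehicle replicate 3. The rise was 1.41-fold (log2 fold change 0.50, SE 0.11, adjusted P = 0.00375). KW6002 and cotreated tumors had 31.7, 29.4, 27.7, 31.7 and 32.2 CPM and 30.2, 32.1, 27.4, 34.5 and 37.7 CPM. Atf5 passed neither comparison of that group (adjusted P = 0.168 against vehicle and 0.0994 against cisplatin), although without cisplatin replicate 1 it was called lower than cisplatin, at -0.38 with an adjusted P of 0.0247. The count of 1 in 39 stands beside 10.6% of all tested genes called after cisplatin, and 6.01% called higher. By unadjusted P value, 11 of 39 lay under 0.05, beside 30.9% of all tested genes.

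Most of the other regulators and effectors of ATF4 differed more among the cisplatin than among the vehicle tumors, with Cebpg as the exception, at coefficients of variation of 6.57% and 8.37%. Atf4 mRNA was 298, 288, 329, 301 and 282 CPM in vehicle tumors and 298, 326, 327, 360.0 and 483 CPM in cisplatin tumors. Cisplatin replicate 5 had the highest Atf4 of all 20 tumors, and the group difference was not called (log2 fold change 0.26, SE 0.094, adjusted P = 0.0625). Without cisplatin replicate 1 it was called, at 0.33 with an adjusted P of 0.0166. In all, 5 genes of the list were called without cisplatin replicate 1, 3 without replicate 2, and 2 without replicate 3 or 5, beside 12.2%, 10.4%, 8.78% and 9.63% of all tested genes in the same fits. In KW6002 and cotreated tumors Atf4 was 342, 292, 293, 326 and 281 CPM and 294, 301, 304, 310.0 and 318 CPM. The cotreated tumors were thus the closest together, with a coefficient of variation of 3.08% beside 20.3% in cisplatin tumors.

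Ddit3, the proapoptotic transcription factor CHOP, stood at 15.6, 14.4, 18.3, 13.7 and 15.6 CPM in vehicle, 15, 12.7, 13.9, 17.3 and 11.5 CPM in KW6002 and 16, 14.7, 15, 17.5 and 19.3 CPM in cotreated tumors. Its values after cisplatin were 13, 13.8, 18.5, 27.9 and 44.5 CPM. Replicates 4 and 5 lay above every other tumor and replicates 1 and 2 below the vehicle median, a 3.42-fold range within 1 group. The mean difference from vehicle was not called (log2 fold change 0.60, SE 0.25, adjusted P = 0.105). Without cisplatin replicate 1 it was called, at 0.77 with an adjusted P of 0.0282, and without replicate 2 at 0.74 with 0.0406.

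Replicates 4 and 5 were also the highest of the cisplatin group in 3 genes that ATF4 or CHOP is known to induce, which are named here after their values were seen. Trib3, a pseudokinase that restrains ATF4, was 8.08, 6.91, 7.59, 14.9 and 25.1 CPM in cisplatin tumors and 8.79 ± 1.42 CPM in vehicle. Chac1 was 1.15, 0.787, 1.48, 1.53 and 2.58 CPM against 0.958 ± 0.166 CPM. Aldh1l2, a mitochondrial folate enzyme, was 9.98, 12.9, 11.7, 34.6 and 46.9 CPM against 14.1 ± 1.54 CPM. None of these was called (adjusted P = 0.226 for Trib3, 0.188 for Chac1 and 0.174 for Aldh1l2), with coefficients of variation of 61.9%, 44.6% and 71.6% in the cisplatin group. The ATF4 targets Asns, Atf3 and Mthfd2 were at 128, 11.8 and 72.9 CPM in replicate 4, each within its vehicle range. Replicate 4 was the highest of the cisplatin group in 4 of the 22 genes of the ATF4 branch, beside 27.4% of all tested genes, and replicate 5 in 16, beside 18.05%. Single tumors led in the other groups too: vehicle replicate 3 was the highest of its group in 11 of the 22 (20.8% of all tested genes), KW6002 replicate 1 in 10 (21.1%) and cotreatment replicate 5 in 9 (20.8%), and vehicle replicate 4 was the highest in 10 of the 13 ER genes (29.4%). Cisplatin replicate 5 was the highest of all 20 tumors in 12 of the 22 genes of the ATF4 branch (Atf4, Ddit3, Trib3, Chac1, Ppp1r15a, Atf3, Atf5, Stc2, Asns, Phgdh, Aldh1l2 and Slc3a2), beside 6.33% of all tested genes. Replicate 4 was the highest in Cebpb, Nupr1, Psph and Shmt2, beside 12.6% of all genes. Among the 13 ER genes, replicate 5 was the highest in Hspa5 and Hsp90b1 and replicate 4 in Herpud1 and Manf.

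A score per tumor, the mean log2 CPM of a list minus its vehicle mean, gave -0.20, -0.25, -0.10, 0.47 and 0.96 for the regulators and effectors in cisplatin replicates 1 to 5. The enzymes gave -0.16, -0.15, -0.060, 0.32 and 0.41 and the ER genes -0.12, -0.14, -0.054, 0.009 and 0.050. Replicates 4 and 5 were the highest in all 3 lists, and the ER genes covered a narrower range. The transporters gave -0.129, -0.076, -0.057, -0.043 and 0.161, with the same pair highest. The sensors went another way, with 0.145, 0.189, 0.068, -0.029 and 0.077, so that replicates 1 and 2 were the highest and replicate 4 the lowest. The median coefficient of variation within the cisplatin group was 36.9% over the regulators and effectors, 14.5% over the enzymes, 10.5% over the ER genes and 14% over all tested genes. In vehicle tumors it was 11.2%, 10.9%, 7.67% and 10.9%. Cisplatin replicates 3, 4 and 5 carried later library codes, and in that run alone 8 genes of the list were called against vehicle, beside 15.9% of all tested genes, among them Atf4 (log2 fold change 0.40, adjusted P = 0.0241), Ddit3 (0.99, 0.0207), Ppp1r15a (0.67, 0.0289), Cebpb (0.78, 0.0245), Nupr1 (0.45, 0.0264), Slc3a2 (0.35, 0.0413) and Herpud1 (0.40, 0.00269). Markers of other cells differed among the same tumors. The summed level of 8 T and NK cell genes was 4.5, 4.39, 6.66, 13.8 and 12.4 CPM in cisplatin replicates 1 to 5, that of 6 neutrophil genes was 14.7, 15.4, 26.4, 42.4 and 67.1 CPM, that of 8 macrophage genes was 1284, 1447, 2002, 2314 and 1827 CPM, and that of 8 fibroblast genes was 10190, 9013, 10190, 14880 and 12710 CPM. In vehicle tumors these sums were 2.78 to 9.42, 44.6 to 117, 1180 to 1646 and 10130 to 13250 CPM. None of these markers was at 0 throughout a group. Their part in the result was not tested.

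**Figure D2:**
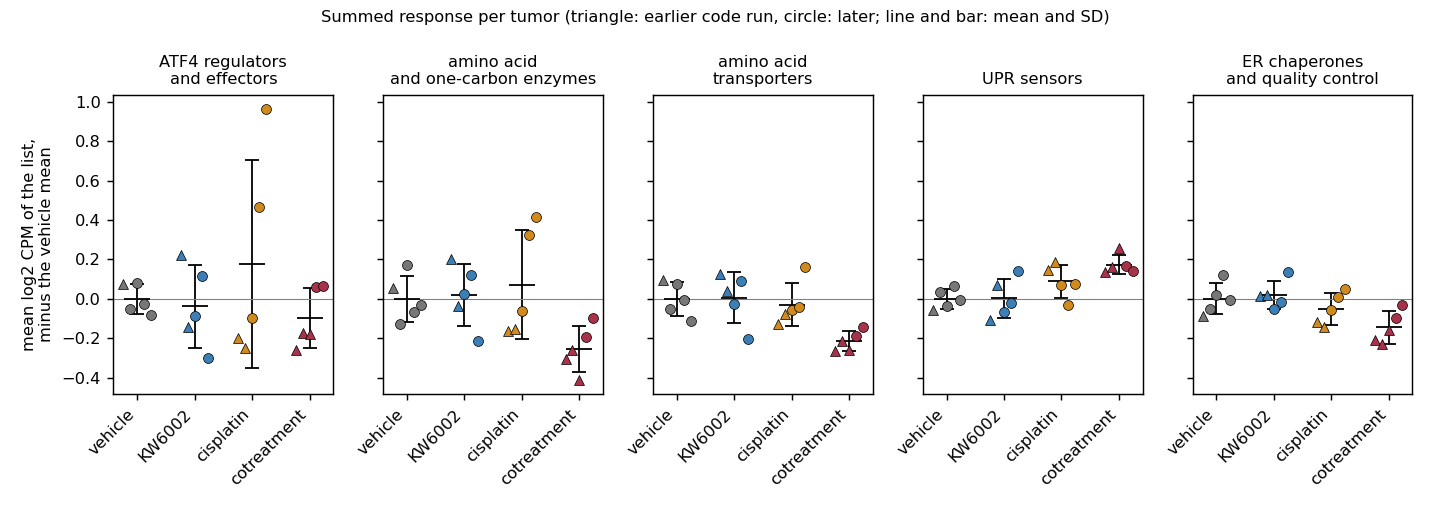
Each point is a tumor; the vertical axis is the mean log2 CPM of the genes of a role minus the vehicle mean, in 5 panels, with triangles for the earlier and circles for the later library codes, and lines and bars for mean and SD. The cisplatin tumors spread from -0.25 to 0.96 in the ATF4 regulators, and the cotreated tumors lie below 0 in the enzymes, the transporters and the ER genes.

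Atf3, a stress-induced transcription factor, had a 7.30-fold range among cisplatin tumors. It was 19.3, 13, 14.8, 11.1 and 11.6 CPM in vehicle tumors, 18.5, 12.9, 10.5, 16.5 and 11.3 CPM in KW6002 tumors and 5.62, 4.42, 7.05, 11.8 and 32.3 CPM in cisplatin tumors. Cisplatin replicates 1 to 3 were below every vehicle tumor and replicate 5 was above them all, and no change was called (log2 fold change -0.19, adjusted P = 0.799). Without replicate 5 Atf3 was called lower, at -0.95 with an adjusted P of 0.0242. Cotreated tumors had 4.06, 3.42, 5.9, 6.63 and 5.43 CPM, all below the lowest vehicle tumor. The fall was to 0.364 of the vehicle level (log2 fold change -1.46, SE 0.43, adjusted P = 0.0136). Against cisplatin it was not called (adjusted P = 0.0854), although DESeq2 called it at 0.0346, and it was called without cisplatin replicate 1 (0.0485) or 2 (0.034).

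Cotreatment changed 10 of the 39 genes against vehicle, 9 of them lower. These were Atf3, the enzymes Asns, Psat1, Shmt2 and Mthfd2, the glutamine transporter Slc1a5, and the ER genes Sdf2l1, Pdia4 and Calr. The exception was Herpud1, an ER protein that serves the disposal of misfolded proteins, which was higher. The share called was 23.5% of all tested genes, 13.1% higher and 10.4% lower, so that 1 of 39 was higher and 9 of 39 lower beside those shares. By unadjusted P value, 20 of 39 lay under 0.05, beside 44.7% of all tested genes. Groups did not overlap in 16 of 39, where 11 were lower, beside 24.7% of all tested genes. The median log2 fold change was -0.11 over the 39 genes and -0.016 over all tested genes. Within the later run of library codes, which held 4 vehicle and 2 cotreated tumors, 3 were called, beside 12.8% of all tested genes. These were Mthfd2 (-0.54, adjusted P = 0.014), Sdf2l1 (-0.50, 0.0213) and Herpud1 (0.43, 0.00357). The other 7 kept their sign there, at -1.04 (Atf3, adjusted P = 0.221), -0.29 (Asns, 0.0998), -0.31 (Psat1, 0.0298), -0.33 (Shmt2, 0.203), -0.30 (Slc1a5, 0.029), -0.30 (Pdia4, 0.032) and -0.185 (Calr, 0.195). The earlier run held 1 vehicle tumor and gave no such comparison.

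The enzymes gave 4 of the 9 lower genes. Psat1, phosphoserine aminotransferase, was 211, 194, 228, 238 and 221 CPM in vehicle tumors and 251, 202, 215, 231 and 208 CPM in KW6002 tumors. It was 195, 217, 206, 227 and 241 CPM in cisplatin tumors and 154, 153, 136, 178 and 173 CPM in cotreated tumors. All cotreated tumors were below every other tumor, and the level fell to 0.726 of vehicle (log2 fold change -0.46, SE 0.079, adjusted P = 0.000136). Against cisplatin alone it fell to 0.731 (log2 fold change -0.45, SE 0.079, adjusted P = 0.00275).

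Shmt2, the mitochondrial serine hydroxymethyltransferase, was 198, 154, 201, 141 and 160.4 CPM in vehicle and 190.5, 176, 192, 187 and 134 CPM in KW6002 tumors. After cisplatin it was 151, 138, 174, 204 and 186 CPM, and after cotreatment 122, 127, 112, 134 and 124 CPM. The cotreated tumors were below every vehicle and cisplatin tumor and overlapped KW6002 replicate 5 alone. Shmt2 fell to 0.725 of vehicle (adjusted P = 0.0038) and to 0.726 of cisplatin (log2 fold change -0.46, SE 0.12, adjusted P = 0.0222). The call against cisplatin was lost without cisplatin replicate 3 (adjusted P = 0.0572), 4 (0.0664) or 5 (0.064) and without cotreatment replicate 1 (0.0504), 2 (0.0577) or 3 (0.078), and with no filter on low counts (0.0707).

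Mthfd2, a mitochondrial folate enzyme that is low in most adult tissue and high in many tumors, was 76, 61.5, 83.7, 77 and 69.2 CPM in vehicle and 90.4, 66.1, 68.6, 76.4 and 64.7 CPM in KW6002 tumors. Cisplatin tumors had 56.1, 58.9, 60.6, 72.9 and 80.1 CPM and cotreated tumors 48.9, 44.6, 42.1, 48 and 51 CPM. The cotreated values lay below all 15 others, and Mthfd2 fell to 0.639 of vehicle (log2 fold change -0.65, SE 0.11, adjusted P = 9.69e-05) and to 0.715 of cisplatin (adjusted P = 0.0104).

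Asns, asparagine synthetase, was 132, 120.2, 146, 140.2 and 136 CPM in vehicle and 149, 130.5, 136, 148 and 119.8 CPM in KW6002 tumors. Cisplatin tumors had 119, 116, 114, 128 and 152 CPM and cotreated tumors 102, 110.3, 97.1, 108 and 110.0 CPM. Cotreated tumors were again below all others, and the fall to 0.784 of vehicle was called (log2 fold change -0.35, SE 0.077, adjusted P = 0.00126). That against cisplatin missed the threshold (log2 fold change -0.25, adjusted P = 0.0523). Without vehicle replicate 3 or cotreatment replicate 3 the log2 fold change against vehicle was -0.31, inside the fold limit.

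The remaining enzymes were not called in the main analysis. Phgdh was called lower against cisplatin once cisplatin replicate 2 was left out (-0.36, adjusted P = 0.0458), and Psph had an adjusted P of 0.046 after cotreatment with a log2 fold change of 0.18 inside the limit. Phgdh, which opens the serine pathway, was 47.6 ± 7.08 CPM in vehicle, 55.1 ± 7.99 CPM after cisplatin and 44.9 ± 4.76 CPM after cotreatment. Psph, which closes it, was 18.5 ± 0.676, 20.5 ± 1.9 and 21.1 ± 1.04 CPM, and its exons overlap those of Cct6a over 10.4% of their length. Aldh1l2 was 14.7 ± 4 CPM after cotreatment (log2 fold change 0.058, adjusted P = 0.92). Of the 7 enzymes, 4 were thus lower after cotreatment, beside 10.4% of all tested genes, with a median log2 fold change of -0.35. None was called after cisplatin, beside 10.6%, with a median of -0.002.

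Among the transporters, Slc1a5 was lower after cotreatment, at 129 ± 6.25 CPM beside 164 ± 10.8 CPM in vehicle and 153 ± 6.29 CPM in cisplatin tumors (log2 fold change -0.35, SE 0.065, adjusted P = 0.00032 against vehicle). The fold was inside the limit without vehicle replicate 1 or 2 (-0.32 and -0.31) or cotreatment replicate 3 (-0.32). Slc7a5 and Slc3a2 form the exchanger that brings in large neutral amino acids. Slc7a5 was 144 ± 12.6 CPM in vehicle and 122 ± 6.81 CPM in cotreated tumors, with an adjusted P of 0.00988 and a log2 fold change of -0.24 that was inside the limit. Slc3a2 was 173 ± 13.1 and 163 ± 16.4 CPM, and Slc7a1, a carrier of arginine and lysine, 116 ± 9.25 and 102 ± 4.78 CPM, and neither was called.

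None of the remaining regulators and effectors was called in the main analysis. Cebpg, a dimer partner of ATF4, was 103 ± 8.61 CPM in vehicle and 86.5 ± 5.68 CPM in cisplatin tumors, which did not overlap, with a log2 fold change of -0.25 inside the limit (adjusted P = 0.0198). Nupr1, a small stress-induced chromatin protein, was 49.6 ± 4.3 CPM in vehicle and 60.8 ± 8.36 CPM in cotreated tumors, where all 5 were above the vehicle range (log2 fold change 0.29, adjusted P = 0.126). With the run of library codes as a term in the model Nupr1 was called, at 0.42 with an adjusted P of 0.0104. Ppp1r15a was 21.8 ± 1.08, 29.8 ± 10.1 and 26.5 ± 1.77 CPM in vehicle, cisplatin and cotreated tumors, and missed the threshold after cisplatin (adjusted P = 0.0597), while without cisplatin replicate 1, 2 or 3 it was called (0.0351, 0.0334 and 0.0442), as it was by DESeq2 (0.0327). Cebpb was 2.03 ± 0.158 and 2.8 ± 1.03 CPM and shares 20.7% of its exon length with Tmem189 on the other strand. Stc2 was 1.13 ± 0.249, 1.21 ± 0.99 and 0.839 ± 0.257 CPM in vehicle, cisplatin and cotreated tumors, and was not called.

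**Figure D3:**
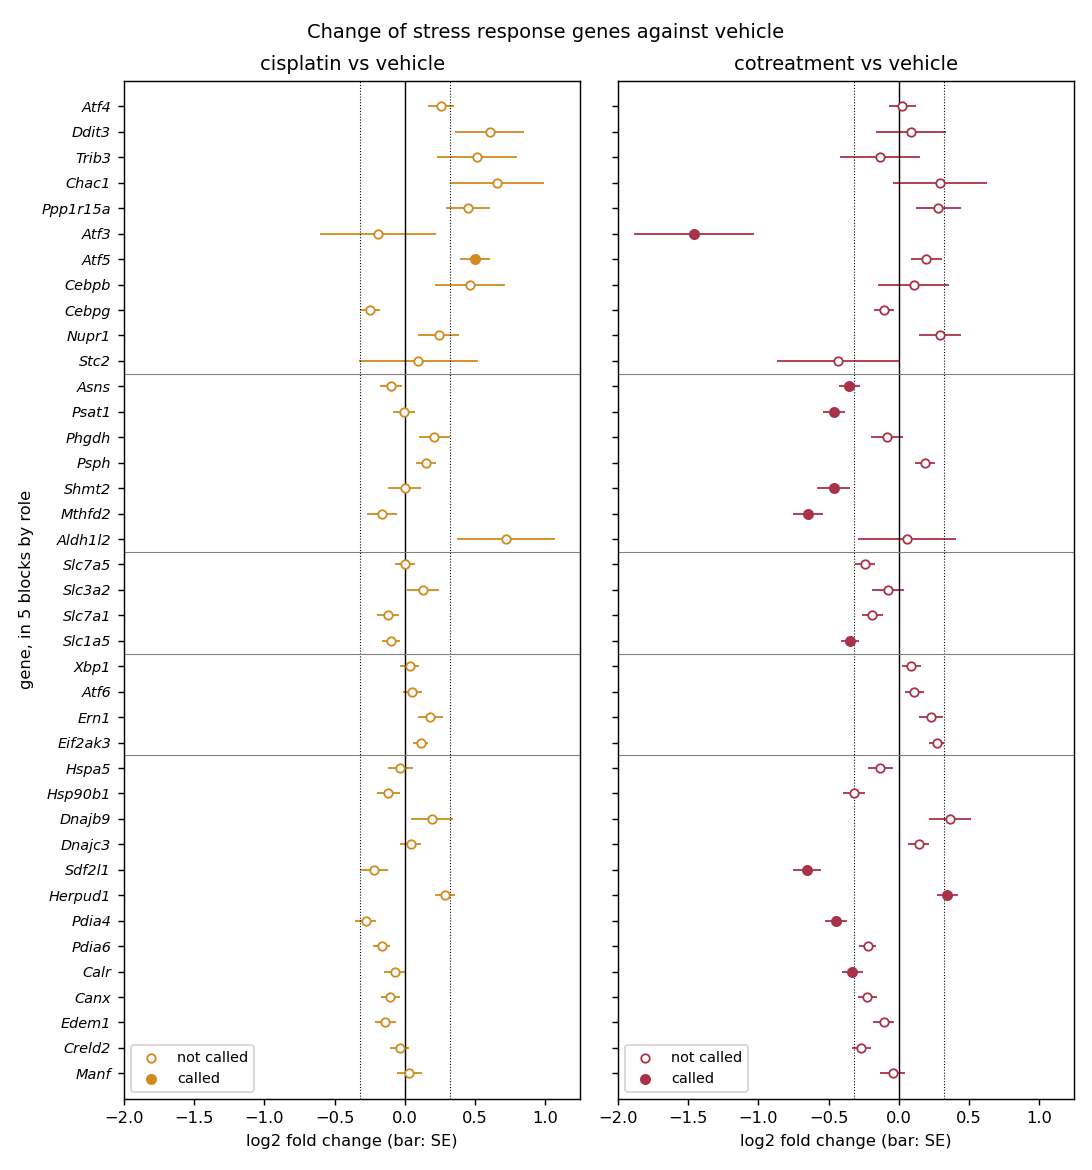
Each point is the log2 fold change of a gene against vehicle, after cisplatin (left) and after cotreatment (right), with its SE as a bar; filled points were called, and dotted lines mark 0.32 in either direction. The left panel has 1 filled point (Atf5) and the right panel 10, of which Herpud1 is the only one above 0.

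All 4 genes of the sensor list had positive log2 fold changes after cotreatment, from 0.09 to 0.27, beside 47.8% of all tested genes, and none was called against vehicle, beside 23.5%. Xbp1, whose gene counts do not separate the spliced from the unspliced mRNA, was 188, 211, 196, 224 and 198 CPM in vehicle and 206 ± 17 CPM in KW6002 tumors. After cisplatin it was 196, 198, 212, 211 and 225 CPM, and after cotreatment 197, 201, 221, 230.5 and 233 CPM. All groups overlapped (adjusted P = 0.767 after cisplatin and 0.307 after cotreatment). Eif2ak3, the PERK kinase, was 52.8 ± 1.71, 50.7 ± 4.15, 57 ± 3.51 and 63.6 ± 2.12 CPM in vehicle, KW6002, cisplatin and cotreated tumors. The cotreated tumors did not overlap with vehicle, but the log2 fold change of 0.27 was inside the limit (SE 0.056, adjusted P = 0.000781). Its exons overlap those of Gm43292 over 8% of their length. Ern1 was 170.2 ± 9.33 and 199.5 ± 19.2 CPM (log2 fold change 0.23, adjusted P = 0.0437) and Atf6 174 ± 7.61 and 188 ± 11.2 CPM.

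Of the 13 ER genes, 3 were lower and 1 higher after cotreatment, beside 10.4% and 13.1% of all tested genes, with a median log2 fold change of -0.22. Sdf2l1 encodes a cofactor that keeps BiP clients soluble. Its levels were 14.5, 10.5, 13.7, 14 and 14.5 CPM in vehicle and 15.3, 15, 13.7, 14.7 and 13.8 CPM in KW6002 tumors. Cisplatin tumors had 11.5, 9.14, 11.8, 13.5 and 11.9 CPM and cotreated tumors 7.76, 8.38, 8.29, 8.84 and 9.52 CPM. Cotreated tumors were below all vehicle and KW6002 tumors and overlapped cisplatin replicate 2. Sdf2l1 fell to 0.636 of vehicle (log2 fold change -0.65, SE 0.10, adjusted P = 4.49e-05) and to 0.74 of cisplatin (adjusted P = 0.0138). The call against cisplatin was lost when only these groups were fitted (adjusted P = 0.0622).

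Hspa5 was 952, 1043, 1232, 1202 and 1054 CPM in vehicle and 1203, 1085, 1098, 1133 and 1151 CPM in KW6002 tumors. Values after cisplatin were 960.1, 942, 1028, 1128 and 1309 CPM, and after cotreatment 913, 908, 1021, 1029 and 1135 CPM. All groups overlapped, and BiP mRNA was not called in any comparison (log2 fold change -0.031 after cisplatin and -0.13 after cotreatment, adjusted P = 0.261). Pdia4, a disulfide isomerase, fell from 433 ± 33.2 to 318 ± 33.2 CPM after cotreatment (log2 fold change -0.45, SE 0.075, adjusted P = 0.000111), and in cisplatin tumors it was 357 ± 34.1 CPM, with no overlap with vehicle but a log2 fold change of -0.28. Calr, the lectin chaperone calreticulin, was 611 ± 42.9 CPM in vehicle and 486 ± 56.9 CPM in cotreated tumors, and its log2 fold change of -0.331 lay just past the limit, while Hsp90b1 lay just short of it, at -0.318. The Calr call was lost in 17 alternative fits, all with a fold inside the limit, and the log2 fold change was -0.185 in the later run alone. Leaving out vehicle replicate 3, 4 or 5, any of cotreatment replicates 1 to 4, KW6002 replicate 2 or cisplatin replicate 1, 3 or 4 was enough (-0.29 to -0.32). Conversely, Hsp90b1 was called without vehicle replicate 1 or 2 (-0.33) or cotreatment replicate 5 (-0.36), and its exons overlap those of 1810014B01Rik over 10.3% of their length.

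Herpud1 was higher after cotreatment, at 45.3 ± 2.95 CPM beside 35.7 ± 1.02 CPM in vehicle tumors (log2 fold change 0.35, SE 0.074, adjusted P = 0.00107), and was 43.5 ± 5.9 CPM in cisplatin tumors (log2 fold change 0.29, adjusted P = 0.0116, inside the limit). Without cisplatin replicate 1 the latter was called, at 0.36 with an adjusted P of 0.00127. Dnajb9, a cofactor that serves IRE1 and ER disposal, was 35.5 ± 5.84 and 45.7 ± 2.7 CPM in vehicle and cotreated tumors and missed the threshold (log2 fold change 0.36, adjusted P = 0.0651). It was called by DESeq2 (0.0427), with the stricter count filter (0.0422), with only these groups fitted (0.00652), with the run of library codes as a term (0.0315), and without vehicle replicate 2 (0.0451) or 4 (0.0381) or KW6002 replicate 3 (0.045) or 5 (0.00384). Pdia6 was 989.5 ± 32.1 and 848 ± 81.1 CPM, Canx (calnexin) 942 ± 68.3 and 806 ± 36.1 CPM, and Creld2 36.4 ± 1.61 and 30.3 ± 2.28 CPM in vehicle and cotreated tumors, each with an adjusted P under 0.05 and a log2 fold change inside the limit (-0.22, -0.23 and -0.27). Dnajc3 (0.14), Edem1 (-0.11) and Manf (-0.042) did not pass on either count.

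The chaperones with the ER stress element shown above had a median log2 fold change of -0.23 after cotreatment, from -0.33 (Calr) to 0.14 (Dnajc3), with 1 of 7 called lower. The 5 without it in the window ranged from -0.65 (Sdf2l1) to 0.36 (Dnajb9), with a median of -0.11 and 3 called. Of all tested genes 23.5% were called. Genes with the C/EBP-ATF element held called genes in both directions after cotreatment, with Atf3 and Asns lower and Herpud1 higher, while Trib3, Chac1 and Nupr1 were not called.

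The ATF4 branch and the ER chaperones were then set side by side. After cisplatin the median log2 fold change was 0.14 over the 22 genes of the ATF4 branch and -0.073 over the 13 ER genes, a difference of 0.21, which was 0.42 within the later run alone. After cotreatment it was -0.094 and -0.22, a difference of 0.13, which was 0.22 within the later run, 0.078 without vehicle replicate 4 and 0.083 without cotreatment replicate 5. Cotreatment against cisplatin gave -0.30 and -0.10, a difference of -0.20. That difference was -0.13 without cotreatment replicate 3 and -0.22 and 0.003 within the later and the earlier run. The medians over all tested genes were 0, -0.016 and -0.006. The medians themselves moved too. That of the branch after cisplatin was 0.05 without cisplatin replicate 5, 0.24 without replicate 2 and 0.38 within the later run, and that of the ER genes was -0.027 without cisplatin replicate 2, -0.04 without replicate 1 and -0.048 without vehicle replicate 4. After cotreatment the branch median was -0.055 without vehicle replicate 1, -0.062 without cotreatment replicate 1 and 0.07, of opposite sign, within the later run. Against cisplatin the branch and ER medians were -0.19 and -0.028 without cisplatin replicate 5 and both -0.10 within the earlier run, and the ER median was -0.066 without cotreatment replicate 2. The comparisons share tumors, so these differences are not independent of each other. Within the branch, the 11 regulators and effectors had a median of 0.45 after cisplatin and 0.088 after cotreatment, and the 7 enzymes -0.002 and -0.35. Without cisplatin replicate 5 the regulators and effectors had a median of 0.20 after cisplatin. After cotreatment their median was 0.024 to 0.132 with any 1 tumor left out, lowest without cotreatment replicate 5 and highest without cotreatment replicate 3. Within the later run alone it was 0.146, the value of Cebpb. The enzyme median after cisplatin lay between -0.029 without cisplatin replicate 5 and 0.21 within the later run. In the vehicle, cisplatin and cotreated groups the ER score was 0 ± 0.079, -0.05 ± 0.081 and -0.14 ± 0.082, that of the enzymes 0 ± 0.12, 0.072 ± 0.28 and -0.25 ± 0.12, and that of the transporters 0 ± 0.087, -0.029 ± 0.11 and -0.21 ± 0.051. The score of the regulators and effectors was 0 ± 0.074, 0.18 ± 0.53 and -0.097 ± 0.15, with medians over the tumors of -0.099 after cisplatin and -0.17 after cotreatment, both opposite in sign to the median log2 fold change over the genes. Scores of the sensors were 0 ± 0.051, 0.09 ± 0.083 and 0.17 ± 0.049.

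Adding KW6002 to cisplatin was tested directly by comparing cotreatment with cisplatin. It lowered 4 of the 39 genes, Psat1, Shmt2, Mthfd2 and Sdf2l1, and raised none, beside 4.0% of all tested genes called and 1.71% called lower. By unadjusted P value, 17 of 39 lay under 0.05, beside 23.3% of all tested genes. The groups did not overlap in 6, all of them lower (Asns, Psat1, Shmt2, Mthfd2, Slc7a5 and Slc1a5), beside 4.83% of all tested genes. Without a fold limit 7 were called, with Slc7a5, Slc1a5 and Calr added, beside 6.52% of all tested genes. The runs of library codes bear on this comparison, since 3 of 5 cotreated but 2 of 5 cisplatin tumors were of the earlier run. Within the later run none of the 39 was called, and log2 fold changes were -0.355 (Psat1), -0.54 (Shmt2), -0.52 (Mthfd2) and -0.43 (Sdf2l1), with adjusted P values of 0.207 to 0.278. That run left 3 cisplatin and 2 cotreated tumors, and 1 of all tested genes was called in it. Within the earlier run, an alternative added after the data were seen, they were -0.49 (adjusted P = 0.0386), -0.27 (0.0955), -0.35 (0.175) and -0.345 (0.217). The signs were thus the same in both runs, and Psat1 was called in the earlier one, together with Nupr1, which was higher there (0.39, adjusted P = 0.0362), beside 1.93% of all tested genes. For Ddit3 the log2 fold change was -0.72 in the later run and 0.18 in the earlier, with adjusted P values of 0.375 and 0.479, and the difference between runs was not tested. Calr was called lower than cisplatin without cotreatment replicate 5 (-0.33, adjusted P = 0.0112).

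**Figure D4:**
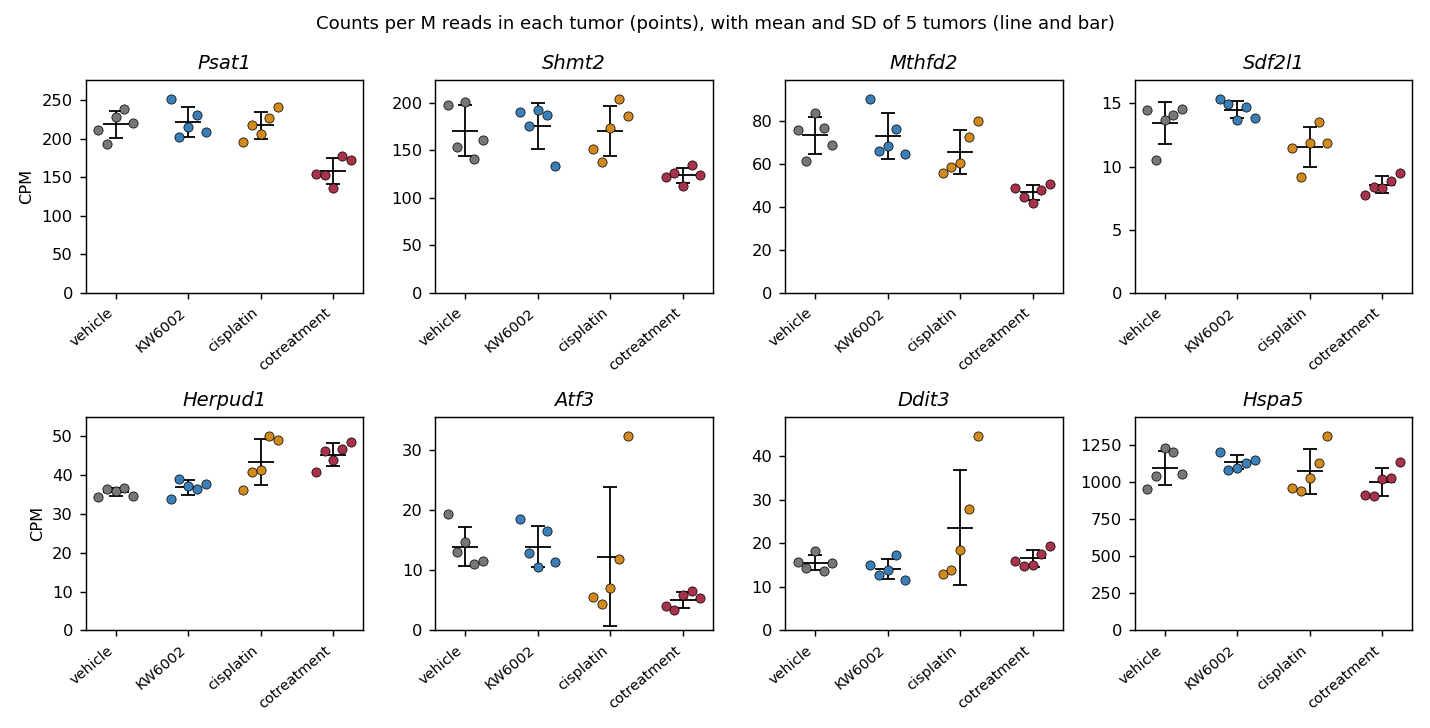
Points are CPM of single tumors in the 4 groups for 8 genes, with lines and bars for mean and SD of 5 tumors and axes from 0. Psat1, Shmt2, Mthfd2 and Sdf2l1 have their lowest means in cotreated tumors, while the cisplatin tumors spread for Ddit3 from 13 to 44.5 CPM.

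The interaction asks whether adding KW6002 acted differently in mice given cisplatin and in mice without it. It was called for none of the 39 genes by edgeR, beside 0.0660% of all tested genes. It was under an unadjusted P value of 0.05 in 12, beside 12.2% of all tested genes. DESeq2 called 3, Psat1, Slc1a5 and Sdf2l1, beside 1.97% of the genes it tested. In edgeR the estimates of these were -0.47 (adjusted P = 0.0812), -0.33 (0.138) and -0.54 (0.12). Psat1 was called in edgeR without cotreatment replicate 4, at -0.52 with an adjusted P of 0.0236, where 1.36% of all tested genes were called.

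Cotreatment was also compared with KW6002 alone, which gives the effect of cisplatin in mice that had KW6002. Here 11 of the 39 genes were called, beside 23.3% of all tested genes. Lower were Atf3, Asns, Psat1, Shmt2, Mthfd2, Slc1a5, Sdf2l1, Pdia4, Calr and Creld2, and Eif2ak3 was higher. KW6002 replicate 1 stood apart in its markers, with a sum of 7 B and plasma cell genes of 133.3 CPM beside 1.23 to 5.57 CPM in the other KW6002 tumors, and of 8 T and NK cell genes of 26.7 CPM beside 4.51 to 12.9 CPM. It was also the highest of all 20 tumors in Psat1, Mthfd2, Slc1a5, Sdf2l1 and Creld2, beside 5.42% of all tested genes. Without it these 5 were still called, and 9 of the 39 in all, beside 20.9% of all tested genes. With all 20 tumors, the largest changes among the 11 called genes were -1.46 (Atf3, adjusted P = 0.0136), -0.76 (Sdf2l1, 8.42e-06) and -0.64 (Mthfd2, 0.000107). Eif2ak3 was at 0.33 (0.000138), and its fold was inside the limit without KW6002 replicate 1 or 4 or cotreatment replicate 2 (0.29 to 0.32). Creld2 was inside it without cotreatment replicate 2 (-0.31), and Calr without KW6002 replicate 1 or any of cotreatment replicates 1 to 4 (-0.29 to -0.32), and also with no filter on low counts, with at least 10 counts in every tumor and with the run of library codes as a term (-0.31 each). Conversely, Nupr1 was called higher without cisplatin replicate 1 or 4 (0.36), by DESeq2 (0.36, adjusted P = 0.0435), with only these groups fitted (0.36, 0.00405) and with the run of library codes as a term (0.41, 0.00879). Herpud1 was called higher without KW6002 replicate 2 or cotreatment replicate 1 (0.33), with the run as a term (0.32) and within the later run (0.37), Dnajb9 without KW6002 replicate 5 (0.45), and Hsp90b1 was called lower without cotreatment replicate 5 (-0.33). Within the later run 3 were called, beside 9.60% of all tested genes, and within the earlier run 13, beside 20.9%. The cotreated tumors are the same as in the comparison with vehicle.

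Genes of the same pathways outside the list were counted in 4 further groups. Of 20 tested other ATF4 pathway genes, 6 were higher after cisplatin and none lower, and after cotreatment 5 were higher and 4 lower. A place on that list does not show that ATF4 drove a change, which was not tested. In the ATF4 branch, 1 of 22 genes was higher after cisplatin. Of all tested genes, 6.01% were higher after cisplatin, and 13.1% were higher and 10.4% lower after cotreatment, which are the shares to set beside all counts of these groups. Sesn2, which restrains growth signaling when amino acids are scarce, was 36.5 ± 3.47, 37.1 ± 4.23, 65.7 ± 7.61 and 67.9 ± 6.23 CPM in vehicle, KW6002, cisplatin and cotreated tumors, and rose in both (log2 fold change 0.85 and 0.89, adjusted P = 5.31e-06 and 5.26e-07). Vldlr, a lipoprotein receptor, rose likewise, to 35.5 ± 23.9 and 45 ± 15.4 CPM from 12.9 ± 1.86 CPM (log2 fold change 1.46 and 1.81, adjusted P = 0.0113 and 0.00101). Its cisplatin values, given per tumor after they were seen, as for Sesn2, were 13.2, 21.5, 21, 54.4 and 67.3 CPM, highest in replicates 4 and 5. The cisplatin values of Sesn2 were 55.6, 71.9, 72.5, 59.7 and 68.7 CPM.

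On the falling side, Pycr1, which makes proline, went from 7.93 ± 0.704 to 4.74 ± 0.826 CPM after cotreatment (log2 fold change -0.74, adjusted P = 0.00024), and Aldh18a1, an earlier step of the same route, from 172 ± 8.27 to 132 ± 3.4 CPM (-0.38, adjusted P = 5.72e-05). Gdf15, a secreted stress hormone named here after its values were seen, was 0.207, 0.105, 0.0979, 0.138 and 0.163 CPM in vehicle, 0.169, 0.66, 1.42, 3.13 and 2.58 CPM after cisplatin and 0.196, 0.413, 0.102, 0.495 and 0.624 CPM after cotreatment. It was low in all groups, rose after cisplatin (log2 fold change 3.45, adjusted P = 0.000915) and was lower after cotreatment than after cisplatin (-2.11, adjusted P = 0.0249). Ddit4, an inhibitor of growth signaling also named after its values were seen, went the other way, at 71.5 ± 7.39, 87 ± 18.4 and 122 ± 20.1 CPM in vehicle, cisplatin and cotreated tumors, and was higher after cotreatment than after cisplatin (0.48, adjusted P = 0.0246). These were the 2 genes of the 20 called in that comparison, beside 4.0% of all tested genes.

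Of 12 tRNA synthetases of the ATF4 program, 3 were lower after cotreatment (Eprs, Lars and Tars) and none after cisplatin. The leading falls were Eprs, from 366 ± 15.5 to 278 ± 13.8 CPM (log2 fold change -0.40, adjusted P = 2.32e-05), and Lars, from 214 ± 18.4 to 167 ± 8.84 CPM (-0.36, adjusted P = 6.89e-05). All 12 had negative log2 fold changes against cisplatin, from -0.22 to -0.03, beside 51.2% of all tested genes, and none was called, beside 4.0%. Cisplatin replicate 5 was the highest of its group in 11 of the 12, beside 18.05% of all tested genes. Cotreatment replicate 5 was the highest of its group in 7, beside 20.8%. Of 11 genes of the eIF2 kinases, eIF2B and phosphatase partners, Eif2s1, the phosphorylated subunit of eIF2 itself, was lower after cotreatment, at 163 ± 6.42 CPM beside 207 ± 15.3 CPM (log2 fold change -0.34, adjusted P = 8.48e-05), and none was called after cisplatin.

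Of 26 tested other ER chaperone and ERAD genes (ERAD is the route that removes misfolded ER proteins), 4 were higher and 2 lower after cotreatment, and 1, Selenos, was higher after cisplatin. The leading rises after cotreatment were Crebrf, a regulator of the response, to 117 ± 9.12 from 80.6 ± 10.3 CPM (log2 fold change 0.54, adjusted P = 0.000353), and Selenos, an ERAD component, to 57.4 ± 3.44 from 41.7 ± 1.6 CPM (0.46, adjusted P = 7.23e-05). Crebrf was also higher than after cisplatin (0.34, adjusted P = 0.045). The leading falls were Pdia5, a disulfide isomerase, to 32 ± 1.51 from 42.4 ± 2.75 CPM (-0.41, adjusted P = 6.34e-05), and Hyou1, a large ER chaperone, to 227 ± 10.5 from 294 ± 18 CPM (-0.37, adjusted P = 2.76e-05). Both counts lay near the shares of all tested genes.

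Markers of other cells also stood apart in the cotreated tumors. The summed endothelial level was 83.5 to 121 CPM, below the vehicle range, and that of neutrophils was 15.5 to 33.1 CPM. Macrophage and fibroblast sums were 1299 to 1709 CPM and 11280 to 12890 CPM, both overlapping vehicle. The sum of 6 adipocyte genes was 13.2 to 34.2 CPM in cisplatin tumors (median 15.4) and 28.1 to 75.4 CPM in cotreated tumors (median 51.5), beside 21.6 to 338 CPM in vehicle. That of 10 skeletal muscle genes was 200.8, 4.72, 367.9, 15.9 and 298 CPM in cisplatin replicates 1 to 5 and 21, 5.54, 104.8, 1650 and 4.27 CPM in cotreatment replicates 1 to 5. The part of these markers in the results was not tested.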

How the data were processed

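RNA of 20 LLC1 tumors was sequenced, with 5 tumors in each of 4 groups. The values are whole-number counts of reads per gene that the authors deposited without normalization. The libraries were made with a stranded polyA kit and read as single ends of 50 bases, and reads were aligned to mm10 with STAR and counted with HTSeq 0.6.1p1 on Ensembl annotation. The submitters' processing notes also name bcl2fastq 2.17.1.14. Counting unique reads on gene unions loses reads in shared exons, and gene counts do not separate isoforms.

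Groups came from the sample titles. Gene symbols were matched through GENCODE M21 for 35142 of 35226 genes. Genes with low counts were removed with edgeR 4.0.16 (R 4.3.3), libraries were scaled by TMM, and the quasi-likelihood test was fitted to all 20 tumors with 1 mean per group. P values were adjusted by the Benjamini-Hochberg method over the 16665 tested genes. The thresholds, an adjusted P under 0.05 and a log2 fold change of at least 0.32, are those of the study. SE is the log2 fold change divided by the square root of its F statistic. Totals of 28.4 to 41 M reads per library left few reads for Chac1, Stc2, Cebpb and Gdf15, which limits their precision. The fit was tested on simulated counts. All 39 genes were named. Values per tumor were given for genes called in cotreatment against cisplatin, the called genes with the 6 largest changes against vehicle, and Atf4, Ddit3, Asns, Xbp1 and Hspa5, and also, chosen after the values were seen, for Trib3, Chac1, Aldh1l2, Vldlr, Sesn2 and Gdf15, and in each other pathway list the 2 called genes with the largest rise and fall after cotreatment were named. The members and lists were chosen with earlier results of these data known. Alternatives were DESeq2 1.42.0, other scalings and filters, only the groups compared, a replicate block, the run of library codes, no fold limit, and each tumor left out.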

Additional observations from a re-analysis of the deposited data

Results flagged for a closer look

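In each group of 5 tumors the highest or lowest CPM of each of the 39 genes was compared with its nearest neighbor, as a share of the range of the group. Among 156 groups of values 12 had a tumor past the limit of 0.71, and chance alone gives about 1 in 20. Cotreatment held 6 of the 12, and 4 of those were in cotreatment replicate 5. That tumor was the highest of its group in Nupr1 (75.68 CPM, next 57.94), Aldh1l2 (21.68, next 14.15), Calr (583.5, next 482.4) and Creld2 (34.22, next 29.92). In the same group Chac1 was 2.422 CPM in replicate 4, next to 1.003, and Slc7a1 was 110.0 CPM in replicate 3, next to 100.5. Cisplatin replicate 5 stood apart in Ppp1r15a (47.12 CPM, next 29.96) and Atf3 (32.27, next 11.81). KW6002 replicate 5 was the lowest in Shmt2 (133.7 CPM, next 175.5) and the highest in Dnajb9 (61.15, next 37.05). In vehicle tumors, Atf5 was 34.71 CPM in replicate 3, next to 27.92, and Sdf2l1 was 10.51 CPM in replicate 2, next to 13.68. The cause of these values was not tested.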

How the results depend on the processing

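Of 7053 single-gene values under the alternatives, 6914 kept their side of the threshold, 75 calls were gained and 64 lost. The sign was opposite in 248, none of them a call of the main analysis. The number of the 39 genes called after cisplatin, 1, became 2 with DESeq2, 8 within the later run of library codes and 4 with no fold limit, and 1 to 5 with a tumor left out; of all tested genes 10.6% were called, and 11.1%, 15.9%, 16.5% and 8.20 to 12.2% in these fits. After cotreatment, 10 became 3 within the later run and 18 with no fold limit, and 7 to 11 with a tumor left out (all tested genes 23.5%, then 12.8%, 35.4% and 19.8 to 24.2%). Cotreatment against cisplatin, 4, became 0 within the later run, 2 within the earlier run (added after the data were seen), 7 with no fold limit and 3 to 6 with a tumor left out (4.0%, then 0.00581%, 1.93%, 6.52% and 1.72 to 6.03%). Against KW6002, 11 became 3 within the later run, 17 with no fold limit and 8 to 12 with a tumor left out (23.3%, then 9.60%, 35.0% and 19.6 to 24.2%). The interaction, 0, became 3 with DESeq2 and 0 to 1 with a tumor left out (0.0660%, then 1.97% and 0 to 1.36%). The fold limit removes genes by construction. Runs hold fewer tumors, yet the count after cisplatin rose from 1 to 8 within the later run. The cause of the changes within runs, and of the others, was not tested. The difference of medians between ATF4 branch and ER genes after cotreatment became 0.221 within the later run and 0.078 to 0.159 with a tumor left out. Against cisplatin it became 0.003 within the earlier run and -0.222 to -0.131 with a tumor left out, and -0.219 within the later run. After cisplatin it was 0.423 within the later run and 0.152 to 0.264 with a tumor left out.

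Deviations of same-numbered tumors correlated at -0.392 to 0.391 between groups, over 0.1 in 12 of 30 pairs, 4 of them among the 5 of cisplatin and cotreatment, and in 3 pairs the first tumor correlated best with its own number, so that the numbers were not taken as pairs. With a replicate block the called members were 0, 1, 12, 4, 12 and 0 in the order KW6002, cisplatin and cotreatment against vehicle, cotreatment against cisplatin, against KW6002, and interaction, beside 0, 9.66%, 22.6%, 3.50%, 22.6% and 0 of all tested genes. The block added Dnajb9 (adjusted P = 0.0443) and Hsp90b1 after cotreatment, and Nupr1 against KW6002 (0.0431). Reads were few for Chac1, Stc2, Gdf15 and Cebpb, with at most 131 in any tumor for Cebpb, and the effect of depth was not tested.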
